A study of Homo sapiens with 12 samples.

Results

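Mitosis and spindle genes are described here in H69 cholangiocytes across 4 treatments: 51 genes chosen by symbol, all measured and all tested, of 62703 genes in the deposited count table. The set holds the kinases and cyclins that start mitosis, the spindle checkpoint, the passenger complex, centromere and kinetochore proteins, mitotic kinesins, spindle assembly and cytokinesis factors, chromosome structure proteins, and a pair of transcription factors. H69 is a line of human bile duct epithelial cells immortalised with the large T antigen of SV40, a viral protein that binds the retinoblastoma family, so every group, the controls included, carries that antigen. After 6 h without serum the cells stayed overnight in serum-free medium with one of the following: vehicle, TGFβ at 10 ng/mL, Aramchol at 30 µM, or TGFβ and Aramchol together at those doses. Aramchol is a conjugate of a fatty acid and a bile acid. Each group had 3 RNA sequencing libraries. Whether the 3 are separate cultures is not in the labels. The p-values below therefore rest on the spread from library to library, which may be technical. The study asked what Aramchol does to the response of these cells to TGFβ, as far as its design text states.

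Cells enter mitosis when CDK1 bound to a B-type cyclin is switched on by CDC25 phosphatases, with the help of the kinases PLK1 and AURKA. Chromosomes are then compacted, kinetochores built on centromeres attach to spindle microtubules, and a checkpoint holds the anaphase-promoting complex back until attachment is complete. Many genes for these steps are transcribed late in the cell cycle, from promoters that carry a cell cycle genes homology region (CHR) and CCAAT boxes. The CHR is bound by the MuvB complex, which represses with DREAM in resting cells and activates with MYBL2 and FOXM1 in dividing ones, and CCAAT boxes are bound by NF-Y.

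The promoters of the B-type cyclins, CDK1 and PLK1 are printed because these genes are textbook carriers of the elements. Those of CDC25B and MYBL2 are printed because these genes mark the 2 ends of the TGFβ response below. Neither of their windows held any of the letters searched. MYBL2 was added after its values were seen. Each is the RefSeq window of 300 bases on GRCh38.p14, from 250 bases before to 50 after the annotated start, read 5′ to 3′ on the plus strand. Capitals mark letters searched on both strands. The CHR was searched as TTTGAA. Its variant, which reads the same on the opposite strand, is TTTAAA. The box bound by NF-Y has the letters CCAAT. Sites of the E2F family were searched as TTTGGCGC, TTTGCCGC, TTTCGCGC and TTTCCCGC. The windows are chr5:69166900-69167199 (CCNB1), chr15:59104896-59105195 (CCNB2), chr10:60778081-60778380 (CDK1), chr16:23678639-23678938 (PLK1), chr20:3786701-3787000 (CDC25B) and chr20:43666864-43667163 (MYBL2).
CCNB1: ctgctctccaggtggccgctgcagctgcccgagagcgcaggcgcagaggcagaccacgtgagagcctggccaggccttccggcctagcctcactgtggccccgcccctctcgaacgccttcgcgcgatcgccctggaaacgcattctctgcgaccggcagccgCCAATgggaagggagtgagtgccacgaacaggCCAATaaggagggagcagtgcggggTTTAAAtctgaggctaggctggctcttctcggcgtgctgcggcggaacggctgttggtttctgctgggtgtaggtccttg
CCNB2: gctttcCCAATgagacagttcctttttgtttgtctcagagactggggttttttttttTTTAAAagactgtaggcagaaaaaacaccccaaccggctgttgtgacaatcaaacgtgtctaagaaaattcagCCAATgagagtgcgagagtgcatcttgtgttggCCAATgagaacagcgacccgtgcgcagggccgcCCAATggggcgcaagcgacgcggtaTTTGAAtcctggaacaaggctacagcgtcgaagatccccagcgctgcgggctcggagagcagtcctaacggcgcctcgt
CDK1: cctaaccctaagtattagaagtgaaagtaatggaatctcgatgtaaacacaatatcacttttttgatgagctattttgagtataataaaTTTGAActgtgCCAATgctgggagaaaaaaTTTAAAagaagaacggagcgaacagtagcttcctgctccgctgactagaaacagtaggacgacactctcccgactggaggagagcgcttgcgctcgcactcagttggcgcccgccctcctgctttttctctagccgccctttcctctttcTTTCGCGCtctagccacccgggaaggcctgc
PLK1: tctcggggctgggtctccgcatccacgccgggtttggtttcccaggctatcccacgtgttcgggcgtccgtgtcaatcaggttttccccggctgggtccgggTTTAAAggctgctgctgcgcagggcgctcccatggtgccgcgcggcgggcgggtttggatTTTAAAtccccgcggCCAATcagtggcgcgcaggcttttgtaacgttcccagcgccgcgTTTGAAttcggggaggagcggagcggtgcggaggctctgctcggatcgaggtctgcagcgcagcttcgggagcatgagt
CDC25B: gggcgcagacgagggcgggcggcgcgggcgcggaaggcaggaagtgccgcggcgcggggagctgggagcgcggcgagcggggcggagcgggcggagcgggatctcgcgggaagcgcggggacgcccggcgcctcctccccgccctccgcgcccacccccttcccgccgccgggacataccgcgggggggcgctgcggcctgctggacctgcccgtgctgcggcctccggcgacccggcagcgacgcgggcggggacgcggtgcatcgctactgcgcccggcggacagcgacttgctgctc
MYBL2: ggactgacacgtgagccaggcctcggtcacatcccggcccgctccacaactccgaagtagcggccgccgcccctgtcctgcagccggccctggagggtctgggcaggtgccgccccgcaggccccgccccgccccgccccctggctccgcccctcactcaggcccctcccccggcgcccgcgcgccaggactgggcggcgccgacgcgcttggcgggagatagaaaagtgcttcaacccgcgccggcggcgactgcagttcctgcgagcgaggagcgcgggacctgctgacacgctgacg
In CCNB2 and PLK1 the TTTGAA began 29 bases before the start, and in CCNB1 the TTTAAA began 30 bases before it. The CCAAT boxes of CCNB1 lay 87 and 55 bases before the start, and those of CCNB2 at 244, 120, 87 and 54 bases.

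Over the 44 members with a window in the RefSeq table, TTTGAA was present in 32 (72.7%), against 15.4% of all 27305 promoters of that length. Either CHR form was present in 38 members (86.4%, against 24.3% of all promoters), and CCAAT in 31 (70.5%, against 35.7%). There were 18 members with 2 or more CCAAT boxes (40.9%, against 11.3%), and TTTGAA together with CCAAT in 24 (54.5%, against 6.08%). The E2F letters occurred in CDK1, CENPA and NUSAP1 only (6.82%, against 3.33%). AURKB, BUB1, CCNA2, CDC25B, CDC25C and MYBL2 had neither CHR form in the window. Matches were counted for each motif by itself and may overlap. AURKA, BIRC5, BUB3, FOXM1, TPX2, TTK and UBE2C were not matched in the table.

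Total counts were 52279922 to 70339925 per library, and values are given as CPM, the counts of a gene per 1000000 counts of its library after TMM scaling, a correction for differences in library composition. TMM factors were lower with TGFβ (0.930 to 0.976 in its 6 libraries) than without it (1.04 to 1.09). With total counts in place of TMM, the median of all genes in TGFβ against vehicle moved from -0.029 to -0.21 on the log2 scale and that of the 51 members from -0.43 to -0.61, since a change of scaling shifts all genes nearly alike. Of 10 cholangiocyte markers 7 were at 1 CPM or more in at least 1 group (KRT7, KRT8, KRT18, KRT19, EPCAM, SOX9 and AQP1), whereas CFTR and SCTR were under 1 CPM. Summed cholangiocyte markers were 1039 to 1854 CPM in vehicle, 2171 to 2403 in TGFβ, 1344 to 1716 in Aramchol and 1938 to 2217 in both. The markers did not move alike with TGFβ: KRT7 and KRT8, which make up most of the sum, and AQP1 rose (adjusted p = 0.0218, 5.47e-05 and 1.11e-11), KRT19, EPCAM and SOX9 fell by 32.7, 56.4 and 44.2% (adjusted p = 0.0203, 2.66e-05 and 4.32e-05), and KRT18 did not pass (adjusted p = 0.569). None of 6 hepatocyte markers, ALB included, had a group mean above 0.0684 CPM. Of 6 fibroblast markers 5 were detected (all but COL3A1), with sums of 136 to 171, 324 to 378, 149 to 152 and 254 to 287 CPM in the same order of groups. Of these PDGFRB rose with TGFβ from a mean of 47.7 to 205 CPM, LUM and THY1 also rose (adjusted p = 0.00198 and 0.000586), PDGFRA fell by 33.4% (adjusted p = 0.00617), and DCN did not pass (adjusted p = 0.922). Leukocyte markers summed to 28.0 to 34.5, 5.30 to 6.05, 28.1 to 29.0 and 5.30 to 7.13 CPM, with CD14 alone above 1 CPM and PTPRC and 4 others at means of at most 0.0841. Of 5 endothelial markers PECAM1 and KDR were detected, and the list summed to 8.57 to 13.5, 7.27 to 10.1, 13.9 to 15.05 and 8.27 to 11.1 CPM. The part of these shifts in the results was not tested.

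Per length, the members covered a wide range in vehicle cells. The median was 33.6 RPKM, which is CPM per kilobase of summed exons. TOP2A, the topoisomerase that disentangles sister chromatids, was highest at 147 RPKM, followed by the ubiquitin-conjugating enzyme UBE2C (129), CDC25B (122), CCNB1 (115), the spindle factor TPX2 (111) and MYBL2 (109.9). NUSAP1 was lowest at 0.745 RPKM and PRC1 next at 1.59. These last 2 are uncertain: 81.4% of the exon bases of NUSAP1 and 61.9% of those of PRC1 are shared with other gene models, and the counts over the 12 libraries were 1658 and 6139. How reads in shared bases were counted is not stated in the sources. Shared exon bases also made up 33.7% of NCAPG, 22% of SMC4, 15.9% of FOXM1 and 12.8% of PLK1, while in 34 members they were under 1%.

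Nearly the whole set was lower with TGFβ, by a modest amount. In TGFβ against vehicle 49 of the 51 members fell and 1, MYBL2, rose. The BUB3 checkpoint gene did not pass the test (edgeR's quasi-likelihood test, Benjamini-Hochberg adjusted p under 0.05 over all 21567 genes tested). Over all genes, 18.1% were called lower and 18.9% higher, 37% in all. With total counts 50 members fell and none rose, among 2567 higher and 7571 lower genes in place of 4070 and 3908. The median log2 fold change of the members was -0.43, a fall of 25.7%, and no member changed 2-fold. On the log2 scale 14 members fell by more than 0.5, 31 by 0.3 to 0.5, and 4 called ones (CDC20, SMC4, CENPF and MAD2L1) by less. All 3 TGFβ libraries lay below all 3 vehicle libraries for 50 members, against 23.7% of all genes, and above them for MYBL2, against 23%. The members together took 9403, 9737 and 10412 CPM in the vehicle libraries and 7729, 7332 and 7084 CPM in the TGFβ libraries, a difference of -25.1%. In bulk RNA, fewer cells in mitosis and less of these transcripts per cell cannot be told apart.

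**Figure D1:**
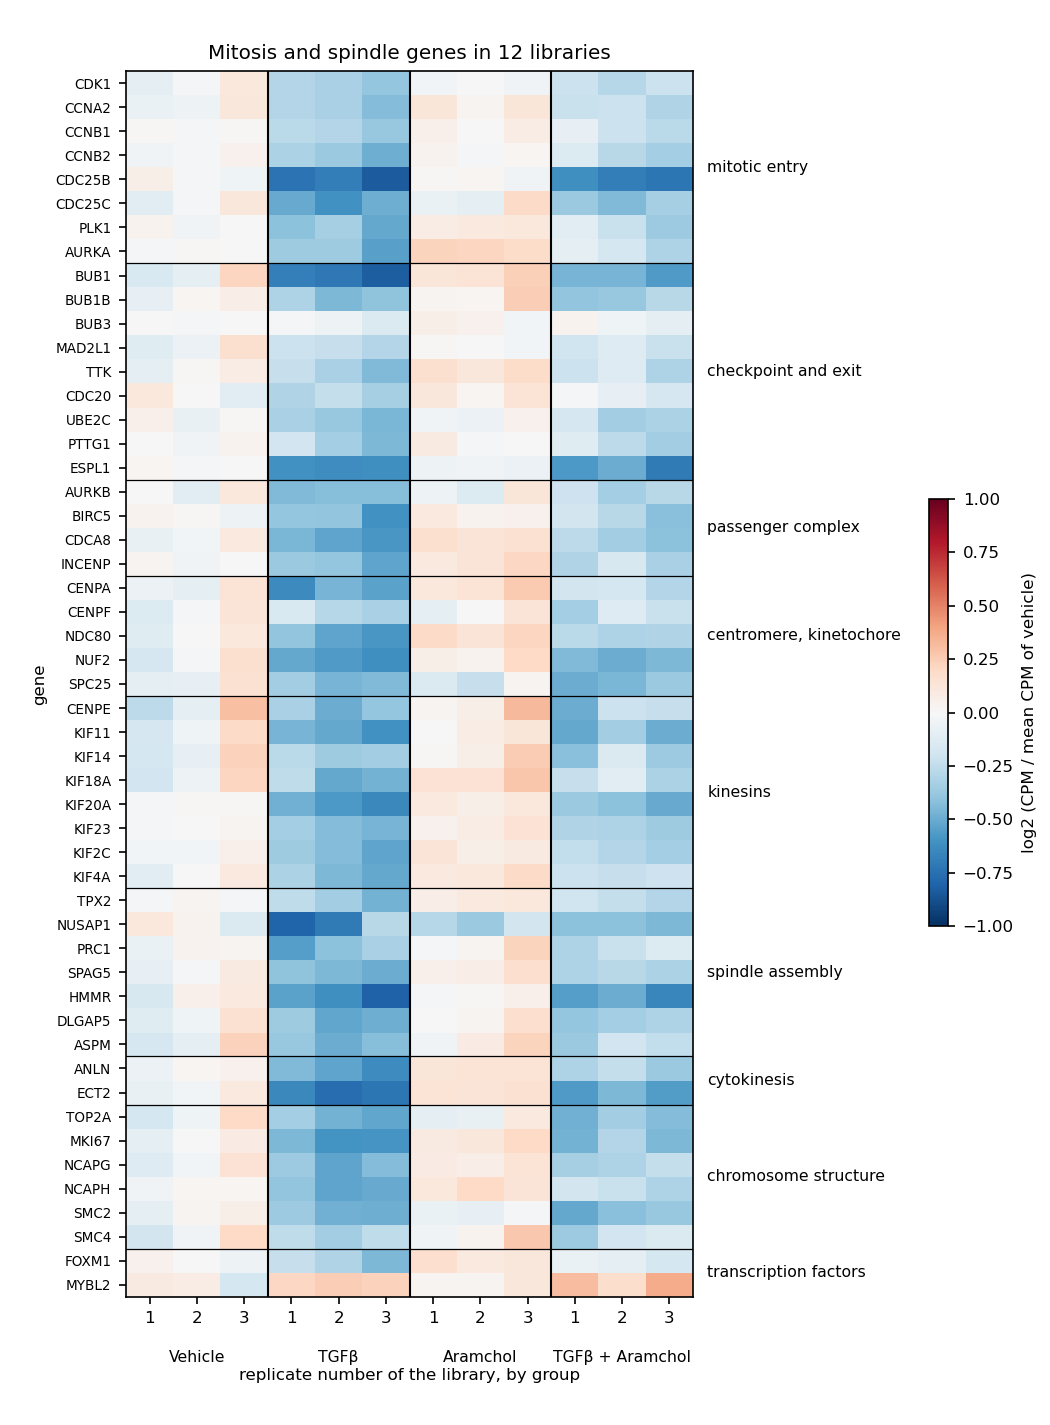
Log2 ratio of each library's CPM to the mean of the 3 vehicle libraries, for the 51 members (rows, grouped by role) in the 12 libraries (columns, numbered by replicate within each group). The TGFβ columns are blue in all rows except MYBL2 and BUB3, and the columns with both agents are a paler blue in most rows.

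All 8 mitotic entry genes fell with TGFβ, with log2 fold changes of -0.75 to -0.32. CDC25B, the phosphatase that activates CDK1 (chromosome 20, 3786772 to 3806121), had the largest fall of all members. It was at 496, 469.9 and 461 CPM in vehicle, 285, 294 and 268 in TGFβ, 479, 483 and 463 in Aramchol and 310.2, 295 and 289 in both. The libraries with and without TGFβ did not overlap, and the change was -0.75 ± 0.053 (SE, n = 3 per group, adjusted p = 1.42e-08). CDK1 itself (chromosome 10, 60778331 to 60794852) was at 121, 128 and 139.8 CPM in vehicle, 106, 104 and 99.5 in TGFβ, 128, 129 and 127 in Aramchol and 112, 107 and 112 in both. Its fall was 20.5% (-0.33 ± 0.054, adjusted p = 0.000155), and the libraries with both agents lay above those with TGFβ alone.

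Its partner CCNB1 (chromosome 5, 69167135 to 69178245) had the smallest change of this role, -0.32 ± 0.054 (adjusted p = 0.000236). It was at 280.4, 275 and 282 CPM in vehicle, 231, 227 and 214 in TGFβ, 289, 279 and 294 in Aramchol and 263, 241 and 231 in both. The polo kinase PLK1 was at 141, 134 and 138 CPM in vehicle, 103, 109.5 and 96.9 in TGFβ, 145, 148 and 148 in Aramchol and 127, 118 and 107 in both (-0.42 ± 0.062, adjusted p = 6.48e-05 for TGFβ). Groups with and without TGFβ did not overlap for either gene. AURKA, the kinase of spindle poles, was at 163, 166 and 164 CPM in vehicle, 129, 128 and 112 in TGFβ, 192, 191 and 186 in Aramchol and 154, 146 and 133 in both. AURKA fell by 25.1% (adjusted p = 5.72e-05), and its Aramchol libraries were the highest of all 12. Cyclin A (CCNA2), the second B-type cyclin CCNB2 and the phosphatase CDC25C fell by 21.4, 23.8 and 30.9%.

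Of the 9 genes of the spindle checkpoint and mitotic exit, 8 fell. BUB1, a checkpoint kinase at kinetochores (chromosome 2, 110637528 to 110678063), was at 191, 199.7 and 247 CPM in vehicle, 132, 129 and 120.1 in TGFβ, 231, 233 and 250.3 in Aramchol and 154, 154 and 143 in both. Its fall was 40.1% (-0.74 ± 0.080, adjusted p = 2.18e-06), and vehicle replicate 3 stood above the other 2 vehicle libraries. BUB3, the partner that brings BUB1 to kinetochores, was at 147, 145 and 147 CPM in vehicle and 145, 142 and 133 in TGFβ. The BUB3 difference was -0.068 ± 0.051 (adjusted p = 0.328), and with total counts it was -0.25 (adjusted p = 0.00126), near the all-gene median of that scaling. CDC20, which activates the anaphase-promoting complex once the checkpoint is satisfied, was at 172, 159.7 and 149 CPM in vehicle, 130.3, 136 and 127 in TGFβ, 173, 162 and 176 in Aramchol and 159, 152 and 143 in both. CDC20 fell by 18.2% with TGFβ (adjusted p = 0.00134).

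The remaining exit genes covered a range. ESPL1, the separase that cleaves cohesin, fell by 34.6% (adjusted p = 1.54e-07), with 96.3, 93.5 and 94.5 CPM in vehicle and 62.2, 61.7 and 62.0 in TGFβ. Its inhibitor PTTG1 fell by 20.2%. BUB1B and MAD2L1, parts of the inhibitor that holds CDC20, and the checkpoint kinase TTK fell by 23.5, 15.6 and 20.6%. UBE2C, which works with the anaphase-promoting complex, fell by 23.4%. MAD2L1 missed the threshold in the libraries numbered 1 and 2 alone (adjusted p = 0.0703).

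The 4 chromosomal passenger genes, whose products correct faulty attachments and later sit at the midzone, moved closely together, with changes of -0.52 to -0.43. The kinase AURKB (chromosome 17, 8204733 to 8210600) was at 103, 95.7 and 111 CPM in vehicle, 76.0, 76.8 and 77.1 in TGFβ, 99.98, 94.0 and 112 in Aramchol and 89.7, 81.8 and 85.5 in both. Its TGFβ libraries were almost identical, and it fell by 25.9% (adjusted p = 0.000117). CDCA8 (borealin) was at 69.3, 71.3 and 77.9 CPM in vehicle, 53.1, 50.5 and 48.7 in TGFβ, 81.4, 79.7 and 81.2 in Aramchol and 60.6, 57.1 and 54.8 in both. INCENP, the scaffold, was at 113, 109 and 112 CPM in vehicle, 85.8, 85.1 and 77.0 in TGFβ, 119, 122 and 128 in Aramchol and 90.1, 99.7 and 88.9 in both. For CDCA8 and INCENP the 4 groups did not overlap in any pair. CDCA8, INCENP and BIRC5 (survivin) fell by 30.3, 25.7 and 27.2%.

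All 5 centromere and kinetochore members fell. NUF2, a subunit of the NDC80 complex that holds microtubules, fell most, by 32.2% (adjusted p = 1.38e-05). It was at 70.1, 77.9 and 87.8 CPM in vehicle, 55.2, 53.2 and 51.4 in TGFβ, 81.7, 80.7 and 90.3 in Aramchol and 57.9, 55.7 and 57.4 in both. The complex members NDC80 and SPC25 fell by 29.2 and 25.1%. CENPA, the histone variant that marks centromeres (chromosome 2, 26764289 to 26801067), was at 34.9, 34.2 and 39.9 CPM in vehicle, 23.4, 26.3 and 25.1 in TGFβ, 39.2, 40.0 and 43.6 in Aramchol and 32.1, 32.2 and 29.7 in both. The 2 TGFβ-treated groups did not overlap for CENPA, nor did either with vehicle, and its fall with TGFβ was 31.4% (adjusted p = 2.18e-05). CENPF had the smallest change, -0.25 ± 0.078 (adjusted p = 0.0177), with 361, 394 and 434 CPM in vehicle, 357, 325 and 316 in TGFβ, 372, 397 and 433 in Aramchol and 314, 362 and 339 in both. It missed the threshold without vehicle replicate 3, without TGFβ replicate 2 or 3, and in the libraries numbered 1 and 2 alone (adjusted p up to 0.0761).

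All 8 kinesins, motors that move chromosomes and slide microtubules, fell by 20.2 to 32.4%. KIF20A, which acts in the central spindle, fell most. It was at 216, 221 and 221 CPM in vehicle, 157, 147 and 141 in TGFβ, 234, 228 and 236 in Aramchol and 169, 165 and 155 in both (-0.56 ± 0.052, adjusted p = 3.66e-07). KIF14, a cytokinesis motor, changed least and varied more, with 84.5, 90.5 and 112 CPM in vehicle, 79.3, 74.8 and 75.2 in TGFβ, 96.7, 99.8 and 114 in Aramchol and 71.6, 86.4 and 74.6 in both. Its adjusted p was 0.0144 and up to 0.0691 without vehicle replicate 3 or TGFβ replicate 2. CENPE, the kinesin that carries chromosomes to the plate, also varied within groups, with 93.0, 105 and 137 CPM in vehicle and 89.3, 79.0 and 85.4 in TGFβ. Its fall of 24.2% (adjusted p = 0.0155) likewise missed the threshold without vehicle replicate 3 or TGFβ replicate 2 (adjusted p up to 0.0781). KIF11, the motor that separates spindle poles, fell by 30.6%, and KIF23, KIF2C, KIF4A and KIF18A by 24.7, 26.3, 25.4 and 24.8%.

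All 7 spindle assembly genes fell. HMMR, a spindle-pole protein, was at 117, 136 and 140.2 CPM in vehicle, 90.6, 85.8 and 75.0 in TGFβ, 129, 132 and 136 in Aramchol and 89.8, 93.0 and 83.3 in both. Its fall of 36.1% (adjusted p = 5.33e-06) was the largest of this role. TPX2, which activates AURKA on microtubules, fell by 21.9%, the least of this role (adjusted p = 8.69e-05), with 396, 409.7 and 398 CPM in vehicle, 336, 315 and 289 in TGFβ, 420.0, 429.7 and 433 in Aramchol and 349, 341 and 327 in both. The microtubule-binding spindle proteins ASPM, DLGAP5 and SPAG5 fell by 25.9, 27.0 and 26.7%. NUSAP1 and PRC1, which share most of their exon bases with other models, fell by 33.1 and 25.5% at 1.54 to 2.89 and 5.99 to 9.01 CPM in the vehicle and TGFβ libraries.

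Both cytokinesis genes fell. ECT2, which activates RhoA at the division plane (chromosome 3, 172750682 to 172821474), was at 231, 239.6 and 261 CPM in vehicle, 156, 144 and 148 in TGFβ, 268, 267 and 271 in Aramchol and 165, 179 and 166 in both. ANLN, the anillin scaffold of the contractile ring, was at 449.9, 474 and 482 CPM in vehicle, 345, 326 and 303 in TGFβ, 511, 515 and 515 in Aramchol and 379, 398 and 362 in both. For both genes the groups kept the order TGFβ, both, vehicle and Aramchol with no overlap between any 2. The falls with TGFβ were 38.9% for ECT2 (adjusted p = 5.67e-08) and 30.7% for ANLN (adjusted p = 1.67e-06).

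All 6 chromosome structure genes fell. MKI67, the coat protein of mitotic chromosomes used as a proliferation marker, was at 642, 679.9 and 724 CPM in vehicle, 499.6, 451 and 453 in TGFβ, 725, 736 and 783 in Aramchol and 493, 555 and 499 in both (-0.54 ± 0.064, adjusted p = 5.66e-06). TOP2A was at 829, 911 and 1076 CPM in vehicle, 742, 675 and 656 in TGFβ, 879, 893 and 1002 in Aramchol and 672, 738 and 695 in both. TOP2A fell by 26.4% (adjusted p = 0.000619), and its 2 TGFβ-treated groups overlapped. NCAPH, a condensin subunit, was at 118, 122 and 122 CPM in vehicle, 91.7, 83.4 and 85.0 in TGFβ, 129.8, 138 and 131 in Aramchol and 106, 103 and 96.96 in both (-0.47 ± 0.053, adjusted p = 3.12e-06). The condensin genes SMC2 and NCAPG fell by 26.5 and 26.3%. The fourth, SMC4, changed least, with 357, 395 and 464 CPM in vehicle, 339.5, 318 and 339.7 in TGFβ, 395, 415 and 488 in Aramchol and 316, 356 and 368 in both. Its adjusted p was 0.0243 and up to 0.112 without vehicle replicate 3 or TGFβ replicate 1 or 2.

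The 2 transcription factors went opposite ways. FOXM1, which activates late cell cycle genes, was at 203, 197 and 189.7 CPM in vehicle, 168, 159 and 144 in TGFβ, 220.2, 210.4 and 213 in Aramchol and 188, 184 and 174 in both, and it fell by 20.05% with TGFβ (adjusted p = 0.000339). MYBL2 (B-MYB; chromosome 20, 43667019 to 43716495) was at 324, 321 and 271 CPM in vehicle, 352, 361 and 359 in TGFβ, 311, 311 and 330.4 in Aramchol and 379, 345 and 395 in both. Every MYBL2 library with TGFβ lay above every library without it. The rise was 0.23 ± 0.068 (adjusted p = 0.0152), and vehicle replicate 3, the lowest, bears on it: without that library the adjusted p was 0.0522. With total counts the MYBL2 difference was 0.052 (adjusted p = 0.497), above the all-gene median of -0.21 but no longer called.

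**Figure D2:**
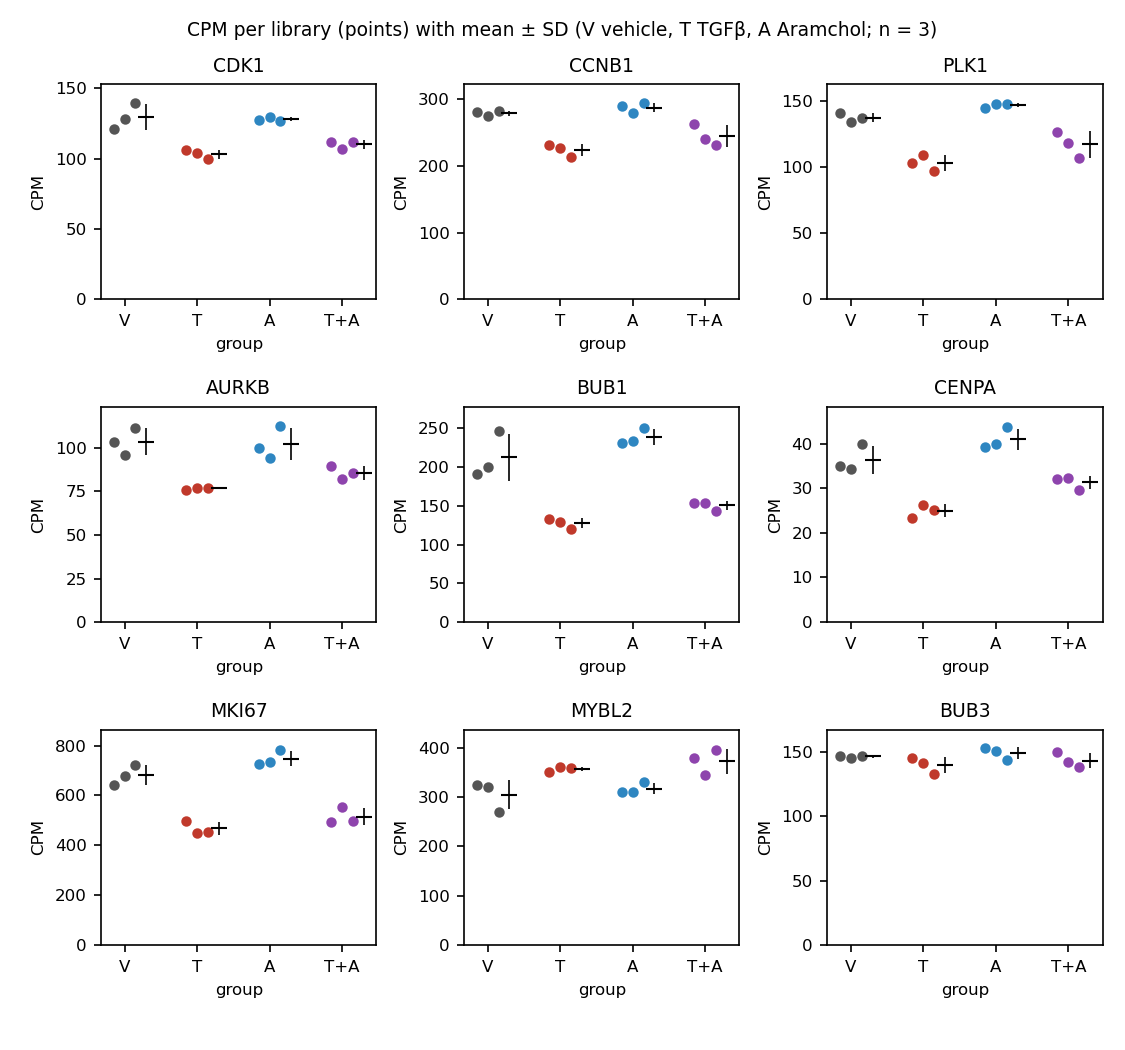
CPM of 9 members in each library (points) with mean ± SD (n = 3; V vehicle, T TGFβ, A Aramchol); the vertical axes start at 0. CDK1, CCNB1, PLK1, AURKB, BUB1, CENPA and MKI67 are lower in T than in V, MYBL2 is higher, and the BUB3 libraries lie between 133 and 153 CPM.

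The TGFβ effect was measured a second time in the cells that also received Aramchol, in 6 libraries that the first comparison did not use. Both tests share 1 estimate of the spread from all 12 libraries, so their calls, unlike their fold changes, are not from separate data. In TGFβ + Aramchol against Aramchol 48 members fell and 1, MYBL2, rose, while BUB3 and NUSAP1 did not pass. Over all genes 14.2% were called lower, 16% higher and 30.2% in either direction. With total counts 49 members fell and none rose, among 2340 higher and 5476 lower genes in place of 3450 and 3064. The member median was -0.38, and the all-gene median -0.0056. The same 48 members were called lower in both comparisons, against 12.1% of all genes, and MYBL2 higher in both (0.23 ± 0.068 with Aramchol, adjusted p = 0.0162). The libraries with both agents lay below all Aramchol libraries for 49 members, against 21.8% of all genes, and above them for MYBL2, against 22.7%. Across the 51 members the 2 sets of fold changes had a Pearson correlation of 0.878, and 0.821 over the 50 without MYBL2. CDC25B, BUB1 and ECT2 were the 3 largest falls in each (-0.67, -0.66 and -0.66 with Aramchol). In 44 of the 51 the value was lower in the comparison without Aramchol, and the share of all genes was not computed. The member median of this difference was 0.056 on the log2 scale, against 0.0060 over all genes. It was 0.0078 in the libraries numbered 1 and 2 alone, against 0.0058 over all genes. With each library left out it ranged from 0.020 (without vehicle replicate 3) to 0.087 (without TGFβ replicate 1). Called in all alternatives run were 44 of the 50 members in the first comparison and 41 of the 49 here. Those lost were AURKB (without Aramchol replicate 3 or TGFβ + Aramchol replicate 2), CENPE (without TGFβ + Aramchol replicate 1), SMC4 (without Aramchol replicate 3 or TGFβ + Aramchol replicate 1), CENPF (without Aramchol replicate 2 or 3 or TGFβ + Aramchol replicate 1 or 3), MYBL2 (with total counts, or without Aramchol replicate 1 or 2 or TGFβ + Aramchol replicate 1 or 3) and PRC1 (with no filter, or without Aramchol replicate 3 or TGFβ + Aramchol replicate 1 or 2). CDC20 and MAD2L1 lost their call in 10 and 11 alternatives, among them the omission of any 1 TGFβ library, with adjusted p up to 0.179 and 0.142.

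**Figure D3:**
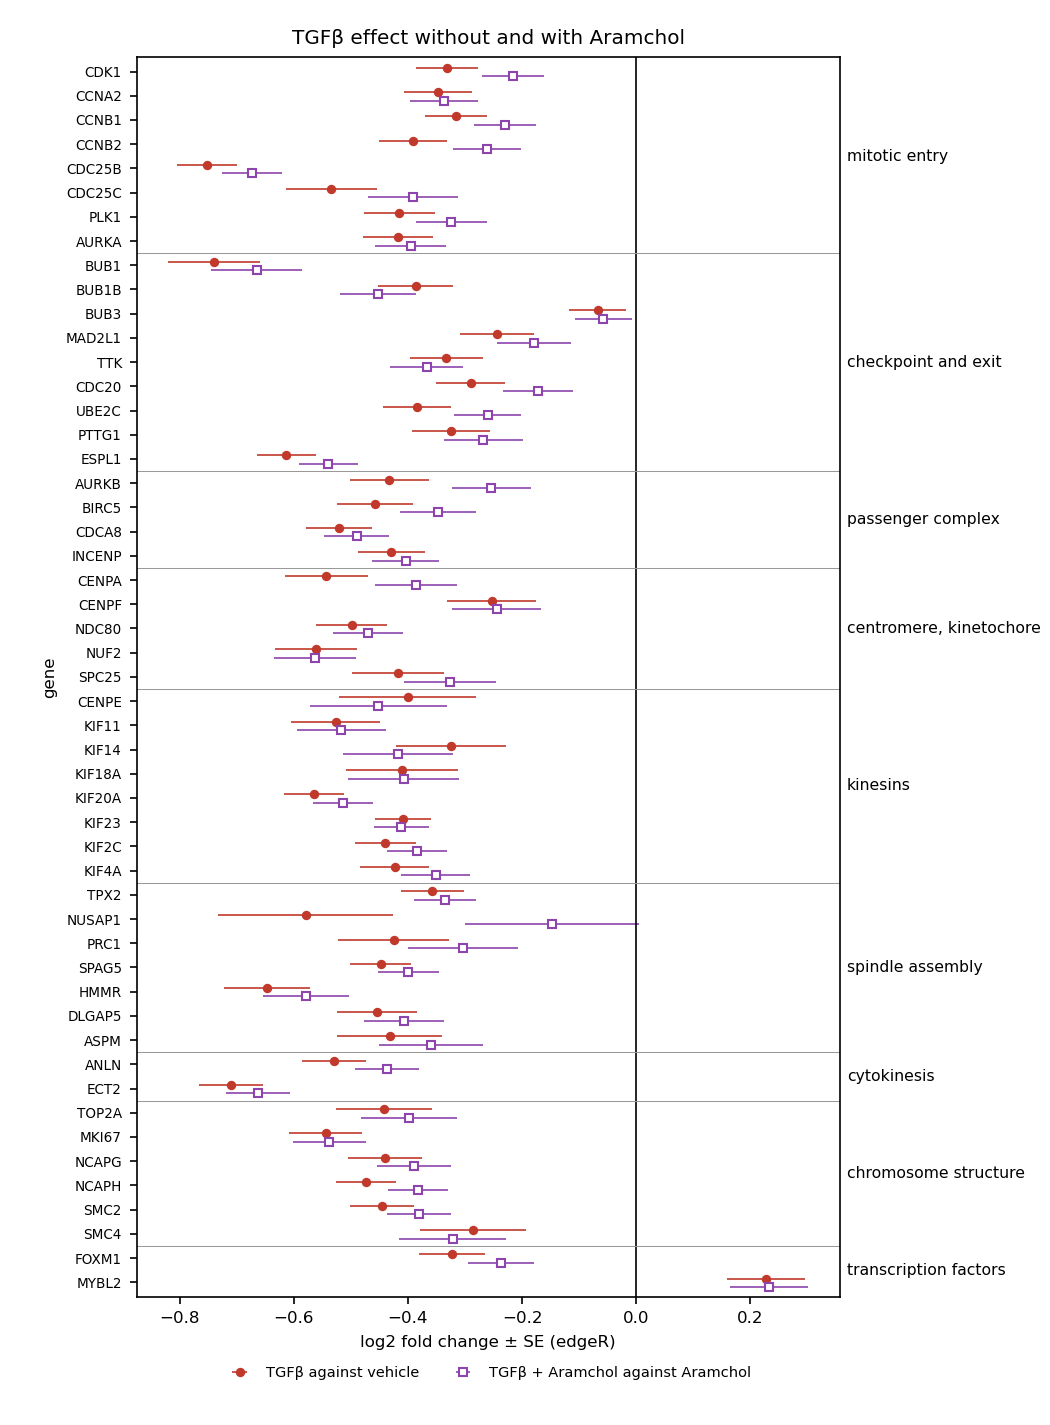
Log2 fold change ± SE (edgeR) of the 51 members for TGFβ against vehicle (filled circles) and for TGFβ + Aramchol against Aramchol (open squares), grouped by role. All circles and squares except those of MYBL2 lie left of 0, and 44 of the squares lie to the right of their circles.

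Against vehicle, cells given both agents had 43 members lower and 1 higher, with a median of -0.29. Over all genes 17% were called lower, 18.2% higher and 35.2% in either direction. With total counts 50 members fell and 1 rose, among 2491 higher and 5979 lower genes in place of 3928 and 3665. This comparison shares the vehicle libraries with TGFβ against vehicle. The 7 members not called were BUB3, CDC20, CENPE, FOXM1, KIF18A, PRC1 and SMC4, for which TGFβ alone gave -0.068, -0.29, -0.40, -0.32, -0.41, -0.42 and -0.29 and both agents gave -0.032, -0.084, -0.31, -0.11, -0.22, -0.22 and -0.23. Without TGFβ + Aramchol replicate 3 the count called went from 44 to 33: ASPM, AURKA, CCNB1, CENPA, CENPF, KIF14, MAD2L1, NUSAP1, PLK1, PTTG1 and TTK lost their call, and MAD2L1 reached the highest adjusted p of any of them in the alternatives (0.331). The largest falls were those of CDC25B (-0.67), ESPL1 (-0.59), HMMR (-0.56), ECT2 (-0.52) and BUB1 (-0.50).

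With Aramchol alone no member passed the test. In Aramchol against vehicle 0 of the 51 members were called by edgeR, and 0 by DESeq2; over all genes 0.357% were called, 51 higher and 26 lower with TMM and 37 and 38 with upper quartile scaling. At an unadjusted p under 0.05 there were 11 members (AURKA, TTK, CDCA8, INCENP, CENPA, NDC80, KIF4A, ANLN, ECT2, NCAPH and FOXM1), all with higher values under Aramchol, against 11.7% of all genes. The median log2 difference was 0.091, and 41 members lay above 0, against 48.4% of all genes. AURKA differed most (0.21 ± 0.061, adjusted p = 0.184). All 3 Aramchol libraries lay above all 3 vehicle libraries for 16 members (7.74% of all genes) and below them for ESPL1 and NUSAP1 (8.26%). Vehicle replicate 3 was high for many members: 41 of the 51 lay above their group mean there. Without it 2 members were called, and from the libraries numbered 1 and 2 alone 6. Over all genes the calls rose as well, to 611 of 22263 and 1544 of 21762 in that order, from 77 of 21567.

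Aramchol added to TGFβ was accompanied by a small upward shift of the set, of which 3 members passed the test. In TGFβ + Aramchol against TGFβ, CENPA (0.33 ± 0.073, adjusted p = 0.0317), NCAPH (0.23 ± 0.053, adjusted p = 0.0324) and ANLN (0.23 ± 0.056, adjusted p = 0.0475) were higher and none was lower, against 0.89% of all genes called higher, 1.36% lower and 2.25% in either direction. With total counts 6 members rose and none fell, among 333 higher and 225 lower genes in place of 192 and 294. At an unadjusted p under 0.05 there were 22 members, against 17.2% of all genes. Of the 51 members 50 lay above 0, against 49.8% of all genes, with SPC25 the exception (-0.023). The member median was 0.14, a difference of 9.89%. The groups did not overlap for 22 members, all higher (11.5% of all genes), and 0 were lower with no overlap (12.2%). AURKA (0.23, adjusted p = 0.0679) and FOXM1 (0.21, adjusted p = 0.0705) were next in line, and BUB1 (0.24, adjusted p = 0.133) had a larger difference with a larger error. Summed CPM was 7729, 7332 and 7084 in TGFβ and 7984, 8152 and 7847 in both, a difference of 8.30%. None of the 3 calls held in every alternative. The count was 0 without TGFβ replicate 2 or 3, Aramchol replicate 2, or TGFβ + Aramchol replicate 1 or 2, 1 without TGFβ replicate 1 or Aramchol replicate 1, and 2 without vehicle replicate 2 or Aramchol replicate 3. It was 5 without TGFβ + Aramchol replicate 3 and 11 without vehicle replicate 3. With a term for the libraries numbered 3 it was 12, with the replicate number as a block 10, and in the libraries numbered 1 and 2 alone 10. All-gene calls rose as well, from 486 to 1683, 1519 and 1853 in that order, and to 1209 without vehicle replicate 3.

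The 2 Aramchol comparisons share no libraries. In both, 41 members lay above 0, against 31.4% of all genes, and their differences had a Pearson correlation of 0.532 across the 51 members. In 49 members the mean with both agents lay between those of TGFβ and vehicle. Mean levels were lowest with TGFβ alone in 49 members and highest with Aramchol alone in 40. The share of all genes with these orders was not computed. The exceptions to the order were SPC25, with 25.6 CPM in TGFβ and 25.2 in both, and MYBL2, highest with both at 373 ± 25.1 CPM (SD, n = 3). Whether the TGFβ effect differed with Aramchol was tested as an interaction. By edgeR 0 members were called (0.0139% of all genes were) and 0 had an unadjusted p under 0.05 (5.27% of all genes), and DESeq2 called 0. NUSAP1 (0.43 ± 0.22, adjusted p = 0.951) and AURKB (0.18, adjusted p = 0.951) had the smallest p-values.

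**Figure D4:**
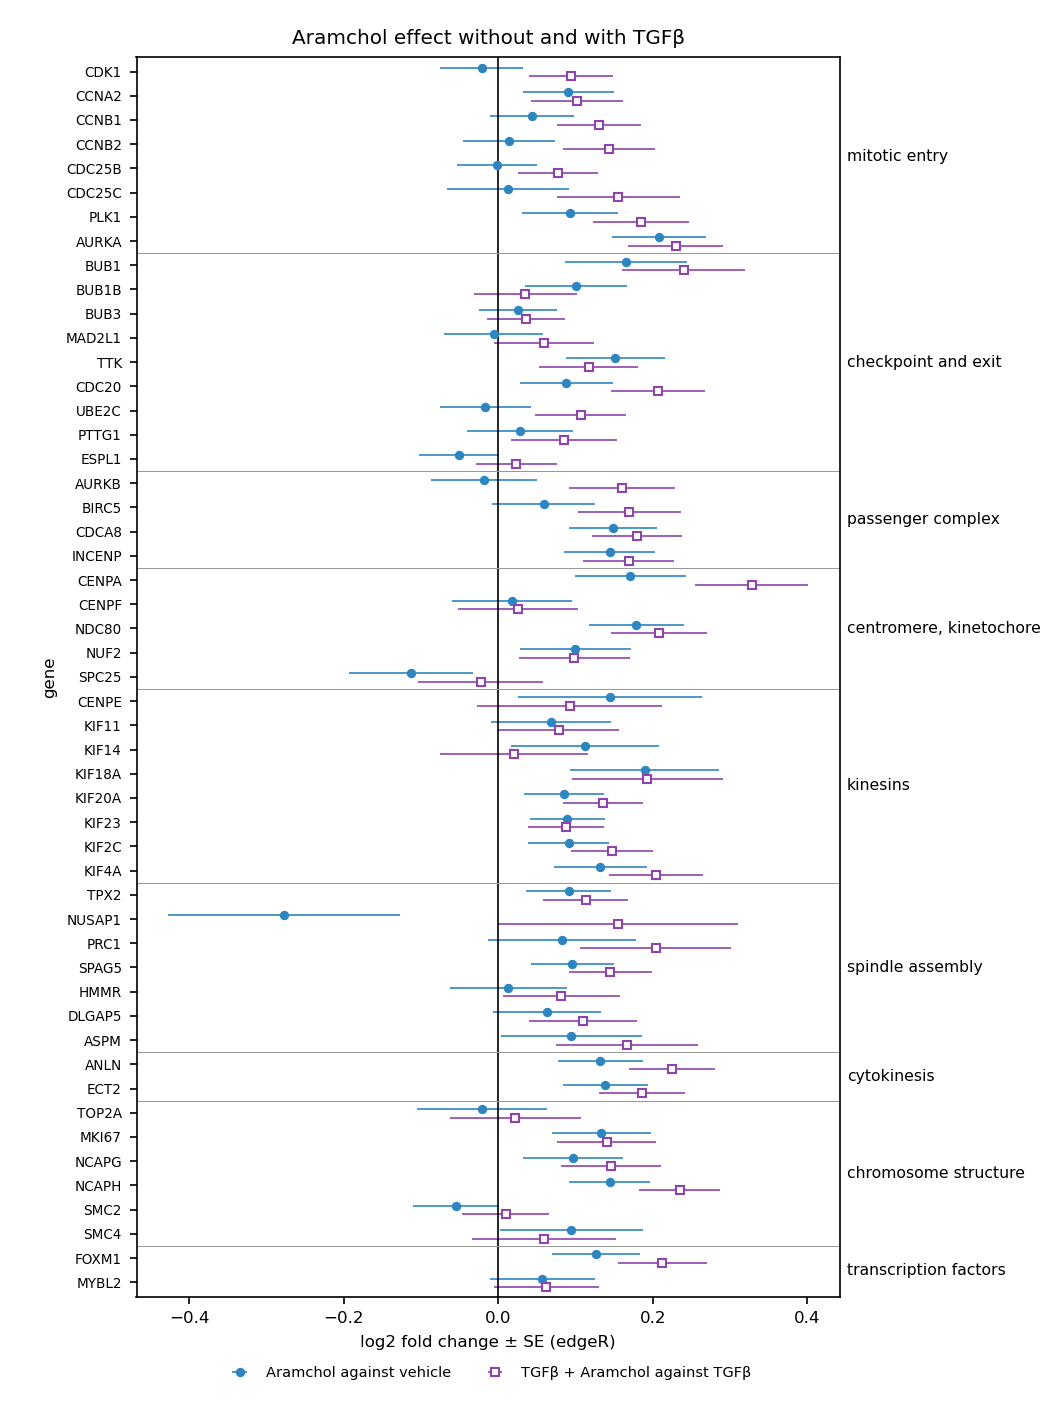
Log2 fold change ± SE (edgeR) of the 51 members for Aramchol against vehicle (filled circles) and for TGFβ + Aramchol against TGFβ (open squares). In all, 50 squares and 41 circles lie right of 0, most by less than 0.25, and NUSAP1, the member with the fewest counts, has the lowest circle at -0.28.

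Other genes of the cell cycle were taken as 9 lists of 7 to 33 genes, chosen with earlier results known. Their counts are to be read against the 37% of all genes called in TGFβ against vehicle. In TGFβ against vehicle the closest to the members were 18 further spindle and cytokinesis genes, all of which fell (median -0.40). DEPDC1 fell by 0.74 and CKAP2L, a spindle protein, by 0.56 on the log2 scale (adjusted p = 3.94e-06 and 1.50e-05). Of 14 further mitotic entry genes 8 fell and 0 rose (57.1% called, median -0.20), led by the kinase NEK2 at 54.8, 56.7 and 67.1 CPM in vehicle and 42.1, 38.6 and 39.2 in TGFβ, and by CDCA3 (-0.54). Of 33 further centromere and kinetochore genes 16 fell and 2 rose (54.5% called, median -0.17). SPC24 (-0.71) and the scaffold KNL1 (-0.51) fell, while SPDL1, which brings dynein to kinetochores, rose from 68.7, 68.8 and 75.3 to 119, 104 and 109.8 CPM (0.65, adjusted p = 1.99e-07) and CENPW rose by 0.28.

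In the machinery around these genes the medians lay closer to 0. Of 13 cohesin genes and condensin partners 6 fell and 1 rose (53.8% called, median -0.15), with NCAPD2 at -0.50, CDCA5 at -0.26 and WAPL, which removes cohesin, at 0.15. Of 17 subunits and partners of the anaphase-promoting complex 5 fell and 1 rose (35.3% called, near the share of all genes, median -0.11), with ANAPC16 at -0.32, UBE2S at -0.24 and ANAPC15 at 0.26. Among 15 DREAM, MuvB and NF-Y genes 5 fell and 2 rose (46.7% called, median -0.063): RBL1 (p107) was at -0.52 and NFYB at -0.46, against NFYA at 0.40 and the repressor E2F4 at 0.32. With total counts WAPL was at -0.028 (adjusted p = 0.734) and the rises of WAPL, ANAPC15, CENPW and CDC6 were not called.

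Outside mitosis the lists were mixed. Of 20 G1 and S phase genes 8 fell and 2 rose (50% called, median -0.081). The activator E2F2 fell from 26.3, 27.6 and 23.7 to 7.40, 7.20 and 7.29 CPM (-1.83 ± 0.080, adjusted p = 7.84e-11) and E2F8 by 0.90, while cyclin E1 (CCNE1) rose from 16.8, 14.8 and 14.3 to 24.8, 23.3 and 24.2 CPM (0.66) and the origin licensing factor CDC6 by 0.22. Of 7 CDK inhibitor genes 3 rose and 3 fell (85.7% called). CDKN1A (p21) rose from 206, 196 and 149 to 735, 727 and 842 CPM (2.06 ± 0.11, adjusted p = 5.83e-10) and CDKN2B (p15), a classical TGFβ target, from 53.0, 45.9 and 34.996 to 193, 193 and 191 CPM (2.11). CDKN2C (p18) fell by 1.10 and CDKN1C (p57) by 0.71. For CDKN1A and CDKN2B every TGFβ library stood far above every vehicle library, and vehicle replicate 3 was the lowest of its group. Of 8 tubulin genes 2 rose (TUBA1A 0.78, TUBB6 0.50) and 2 fell (TUBB4B -0.14, TUBG1 -0.14), 50% in all. All 4 genes of a short list of TGFβ targets rose, with FN1 at 3.49.

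**Figure D5:**
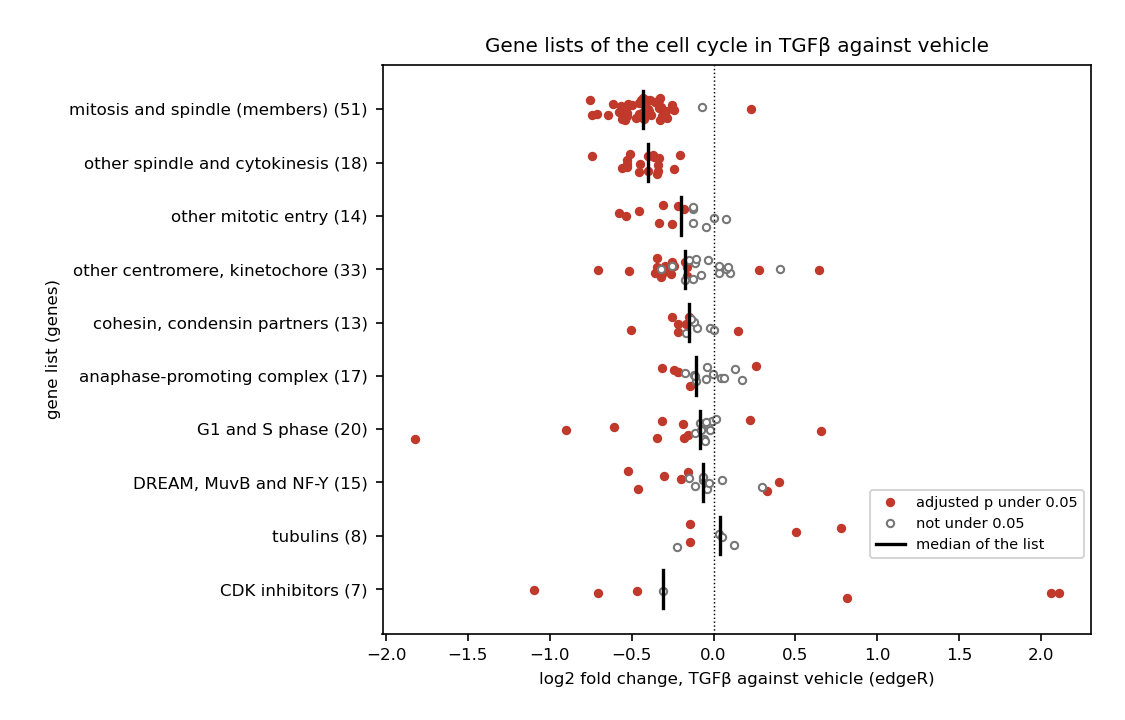
Log2 fold change in TGFβ against vehicle (edgeR) for each gene of the 51 members and 9 other cell cycle lists, with the number of genes in brackets and the list's median as a bar; the vertical scatter within a list has no meaning. The members and the 18 other spindle genes lie together between -0.75 and -0.21 apart from BUB3 and MYBL2, and the other lists spread on both sides of 0.

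The members were also set side by side by their promoter letters, with no test. The median log2 fold change in TGFβ against vehicle was -0.44 in the 32 members with TTTGAA and -0.44 in the 12 without. It was -0.43 in the 31 with CCAAT and -0.44 in the 13 without, and -0.54 in the 3 with E2F letters and -0.43 in the 41 without. For the E2F letters the order was reversed in TGFβ + Aramchol against Aramchol, with -0.22 against -0.40. The 6 members with neither CHR form, listed above with the promoters, covered the whole range of the set, from CDC25B at -0.75 to MYBL2 at 0.23, with a median of -0.48.

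As a shift common to all 4 groups, the libraries numbered 3 differed from those numbered 1 and 2 in a few members. With a term for that number, SMC4 (0.19), CENPE (0.23) and CDC25C (0.15) were higher and BIRC5 (-0.12) lower in them, 4 of the 51 members against 12.6% of all genes. As a median over the members, vehicle replicate 3 stood 0.088 above its group mean on the log2 scale and Aramchol replicate 3 stood 0.047 above, while TGFβ replicate 3 and TGFβ + Aramchol replicate 3 stood at -0.059 and -0.046. Members above their group mean were 41, 40, 11 and 15 in that order, opposite shifts that a common term does not show. From numbers 1 and 2 alone the member median in TGFβ against vehicle was -0.37 in place of -0.43. It was -0.32 in place of -0.38 in TGFβ + Aramchol against Aramchol, and -0.23 in place of -0.29 in TGFβ + Aramchol against vehicle. The spread of the members among libraries of one group, from -0.070 (vehicle replicate 1) to 0.088, was smaller than the median TGFβ effect and similar in size to the median Aramchol effect.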

How the data were processed

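Per the labels' protocols, Trizol was used for RNA and an IDT kit (2S Plus DNA) for the 12 libraries. The submitters' processing notes name STAR 2.7.9a, featureCounts of the Subread package, GRCh38 (hg38) and DESeq2. Neither the annotation release nor the strand setting was given in the sources used here. The values deposited by the authors are raw read counts per gene and library, with gene coordinates and summed exon lengths. Symbols came from a gene name table (62625 of 62703 IDs matched). No pair of libraries was identical.

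Counts were fitted with edgeR 4.0.16 (R 4.3.3; quasi-likelihood test, 1 mean per group, filterByExpr, TMM), with Benjamini-Hochberg adjustment over 21567 genes and 8 residual degrees of freedom, for 6 contrasts. The biological coefficient of variation was 8.9%. CPM and RPKM use TMM-scaled library sizes. The scripts were tested on simulated data, with 50 randomly drawn genes changed at each size in TGFβ against vehicle. Of 1.2-fold changes 10% were called, of 1.5-fold 50%, of 2-fold 82% and of 4-fold 98%, with 7 false calls. Small changes were thus often missed there. The drawn genes were not matched in level to the members, whose median in vehicle was 150 CPM, so these shares are not those of the members. Alternatives were 2 other scalings, 2 other filters, DESeq2 1.42.0, a replicate block, a term for replicate number 3, a fit to numbers 1 and 2 alone, a fit to the contrast's own groups, leaving out each library, and, chosen after seeing the data, total counts with no scaling. Tables and figures used Python 3.11.15, pandas 2.3.3, numpy 2.4.6 and matplotlib 3.10.9.

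The members and lists were chosen with earlier results of these data known. Values per library are given for the members with the largest and smallest TGFβ effect in each role, 10 textbook genes, members called in an Aramchol contrast or the interaction, and a member that moved against the majority; of each other list, up to 2 rises and 2 falls are named. CENPE, ESPL1 and the promoter of MYBL2 were added after their values were seen. Promoter windows are from RefSeq (GRCh38.p14, the first listed window per gene), and 44 of 51 members matched. Exon overlap was computed from the exon coordinates that the deposited count table gives for each gene, on either strand.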

Additional observations from a re-analysis of the deposited data

How the results depend on the processing

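The TGFβ results kept their counts within 1.5 times in every alternative run. With each library left out in turn, members called ranged from 45 (without vehicle replicate 3) to 50 in TGFβ against vehicle, from 43 to 49 in TGFβ + Aramchol against Aramchol, and from 33 (without TGFβ + Aramchol replicate 3) to 46 in TGFβ + Aramchol against vehicle. The interaction stayed at 0 in all alternatives. The Aramchol counts moved. For Aramchol against vehicle 0 members were called, with 1 under a term for the libraries numbered 3, 6 in the libraries numbered 1 and 2 alone, and 0 to 2 with each library left out. All-gene calls there were 77, with 538 under that term, 1544 in numbers 1 and 2 alone, and 16 to 611 with each library left out. For TGFβ + Aramchol against TGFβ 3 were called, with 2 under RLE or upper quartile scaling, 6 with no filter, 5 by DESeq2, 12 under the number term, 10 in the libraries numbered 1 and 2 alone, 6 with only the 2 groups compared, 6 with total counts, and 0 to 11 with each library left out. Over all genes 486 were called, with 480 under RLE and 501 under upper quartile scaling, 1278 with no filter and 1042 by DESeq2. The number term gave 1683, numbers 1 and 2 alone 1853, only the 2 groups 960 and total counts 558. With each library left out the all-gene calls ranged from 55 to 1209. The cause was not tested. Mean summed CPM of the members was 10416, 6891, 10891 and 7698 with total counts and 8230, 6223, 8682 and 6777 without MKI67 and TOP2A, in vehicle, TGFβ, Aramchol and both.

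The labels do not say what a replicate number marks. Correlations of same-numbered libraries were 0.111 to 0.221 for number 3, but 0.00739 to 0.107 for number 1 and 0.0158 to 0.0812 for number 2, so the numbers were not taken to pair the samples, although 9 of 12 libraries lay closest to their own number. With the number as a replicate block 50 members were called in TGFβ against vehicle, 49 in TGFβ + Aramchol against Aramchol, 47 in TGFβ + Aramchol against vehicle, 1 in Aramchol against vehicle, 10 in TGFβ + Aramchol against TGFβ and 0 in the interaction. Over all genes the block fit called 9090, 7695, 8709, 464, 1519 and 23 in the same order. NUSAP1 and PRC1 rest on 1658 and 6139 counts over the 12 libraries, which limits their precision.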

Other observations

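Outside the 51 members, 5 of the 145 genes in the other cell cycle lists were called higher in TGFβ + Aramchol against TGFβ (3.45%, against 0.89% of all genes) and 0 lower (1.36% of all genes). They are named here after their values were seen. SKA1, a subunit of the complex that couples kinetochores to microtubules, was at 49.4, 48.6 and 48.4 CPM with TGFβ and 60.0, 58.6 and 62.0 with both (log2 fold change 0.30, edgeR's quasi-likelihood test, adjusted p = 0.0277). CKS1B, a CDK subunit, was at 65.2, 73.0 and 69.8 CPM with TGFβ and 84.6, 78.9 and 83.1 with both (adjusted p = 0.0401), and the kinesin KIF18B at 72.9, 72.5 and 70.6 against 82.2, 83.5 and 80.2 (adjusted p = 0.0499). Of the G1 and S phase activators, E2F1 was at 88.7, 91.3 and 92.2 CPM with TGFβ and 113, 101 and 108 with both (adjusted p = 0.0324), and E2F2 at 7.40, 7.20 and 7.29 against 9.23, 9.86 and 9.98 (adjusted p = 0.0181). In all 5 the groups did not overlap, against 11.5% of all genes higher with no overlap. The 5 were picked by their call in this contrast, so neither their direction nor the lack of overlap is further evidence. Whether their calls held in the alternatives is not given here. FN1, a matrix gene and 1 of the 4 TGFβ targets used as a check, was lower with both agents (-0.85, adjusted p = 0.000250). It was at 6954, 6960.5 and 8339 CPM with TGFβ and 3686, 4091 and 4554 with both. The other 3 targets were not called, and the 4 ranged from -0.85 to -0.24 with a median of -0.39.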
